A study of Homo sapiens with 10 samples.

Results

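The genes described are the hematopoietic cytokine receptors KIT, EPOR, IL3RA, CSF2RB and IL6ST, the kinase JAK2 that several of them signal through, and the signaling inhibitors SOCS1, SOCS2 and SOCS3. Every non-control probe whose transcript accession belongs to 1 of these 9 genes in RefSeq was taken, which gave 16 of the 42405 probes on the array, for 9 of the 19102 genes named on it. The probes come from an experiment in MEG-01 cells, an established human megakaryoblastic line from a chronic myelogenous leukemia in blast crisis, which carries the BCR-ABL1 fusion. The cells were transfected at 200 nM with the precursor of miR-1225-3p (5 arrays) or with a scrambled negative control (5 arrays), and total RNA was taken after 24 hours. Each sample was labelled with Cy3 and read on its own 1-colour Agilent array, and the labels call the 5 samples of a group biological replicates. The source field of the scrambled samples speaks of no treatment, whereas their titles say scrambled, and the titles were followed here. All arrays come from the same cell line, so the spread between replicates is not that of donors. The labels do not say whether each replicate was a separate transfection.

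Class I cytokine receptors such as EPOR, and the receptor chains IL3RA, CSF2RB and IL6ST, have no kinase of their own. When the ligand brings the chains together, JAK kinases bound to their tails phosphorylate the receptor and then the STAT transcription factors, and SOCS proteins, whose genes are STAT targets, switch the signal off. KIT, the receptor of stem cell factor, is a receptor tyrosine kinase that works beside them in early progenitors, and megakaryocytes depend on this pathway through thrombopoietin and JAK2.

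The transfected microRNA is shown because its seed, the stretch that pairs with target messages, defines the treatment that separates the groups. It is encoded on the minus strand at chr16:2090195-2090216 of GRCh38.p14, per RefSeq, and the capitals mark the seed, bases 2 to 8 from the 5′ end.
hsa-miR-1225-3p: uGAGCCCCugugccgcccccag
Its level in the cells and the probe and target-site sequences were not analysed here.

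Of the 42405 probes, 20648 were kept because the scanner software had marked them as well above background in at least 3 arrays of 1 group, and no spot was saturated. Values are log2 processed signals normalized between the 10 arrays, so the level of a probe is compared only with the same probe on other arrays. Between 41.95% and 61.18% of spots on an array were well above background. The first principal component, which held 69.8% of the variance of the kept probes, ran from -146.9 to -57.15 over miR-1225-3p replicates 1 to 4 and from 57.13 to 82.89 over the scrambled arrays, among which miR-1225-3p replicate 5 lay at 63.83. Results are therefore given with and without that array. The arrays lay on 2 slides that both held both groups, slide 1 with miR-1225-3p replicates 1 and 2 and scrambled replicates 1, 3 and 5, and slide 2 with the rest. Of the 10 megakaryocyte and platelet markers with a probe, 7 were well above background on all arrays of both groups, among them ITGA2B, ITGB3 and GATA1, whereas PF4 was so on 0 arrays. The same held for 6 of 7 erythroid, 2 of 6 lymphoid and 5 of 5 monocyte and granulocyte markers. MEG-01 is a line without sorted fractions, and fewer cells of a type and less RNA per cell cannot be told apart in such bulk samples.

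Among these genes JAK2 was higher after miR-1225-3p, and SOCS1 and the brightest KIT probe were lower, as was a dim IL6ST probe that few arrays measured. Of the 16 probes, 13 were kept and 9 were well above background on all 10 arrays. By limma with Benjamini-Hochberg adjustment over all kept probes at 0.05, 1 of the 13 rose and 3 fell, whereas 9 did not pass. That share, 30.8%, is near the 35.0% of all kept probes that passed (16.3% higher and 18.7% lower), and nothing particular to these genes is read from that count. The median log2 fold change of the 13 was -0.20, against -0.091 over all kept probes. When miR-1225-3p replicate 5 was left out, 1 probe rose and 5 fell, while 55.8% of all kept probes passed (25.3% higher and 30.5% lower). With 1 other array left out the number that fell was 3 (miR-1225-3p replicate 1), 2 (scrambled replicate 5), 1 (miR-1225-3p replicate 2, or either of scrambled replicates 1 and 2) or 0 (replicates 3 and 4 of both groups). The number that rose was 0 in the absence of replicate 2 or 3 of the miR-1225-3p group or of scrambled replicate 4, and 1 otherwise. With all arrays 7225 of all kept probes passed. Over these fits the number lay between 2280 (without miR-1225-3p replicate 2) and 5445 (without scrambled replicate 5). Of the 13 kept probes, 10 passed the background filter through both groups. KIT A_33_P3303245, IL6ST A_33_P3233834 and IL6ST A_33_P3287338 passed it through the scrambled arrays alone, which favours probes that are lower after miR-1225-3p. Of the 10, 1 rose and 2 fell (30.0%), against 34.3% of the 17410 kept probes that passed the filter through both groups.

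**Figure D1:**
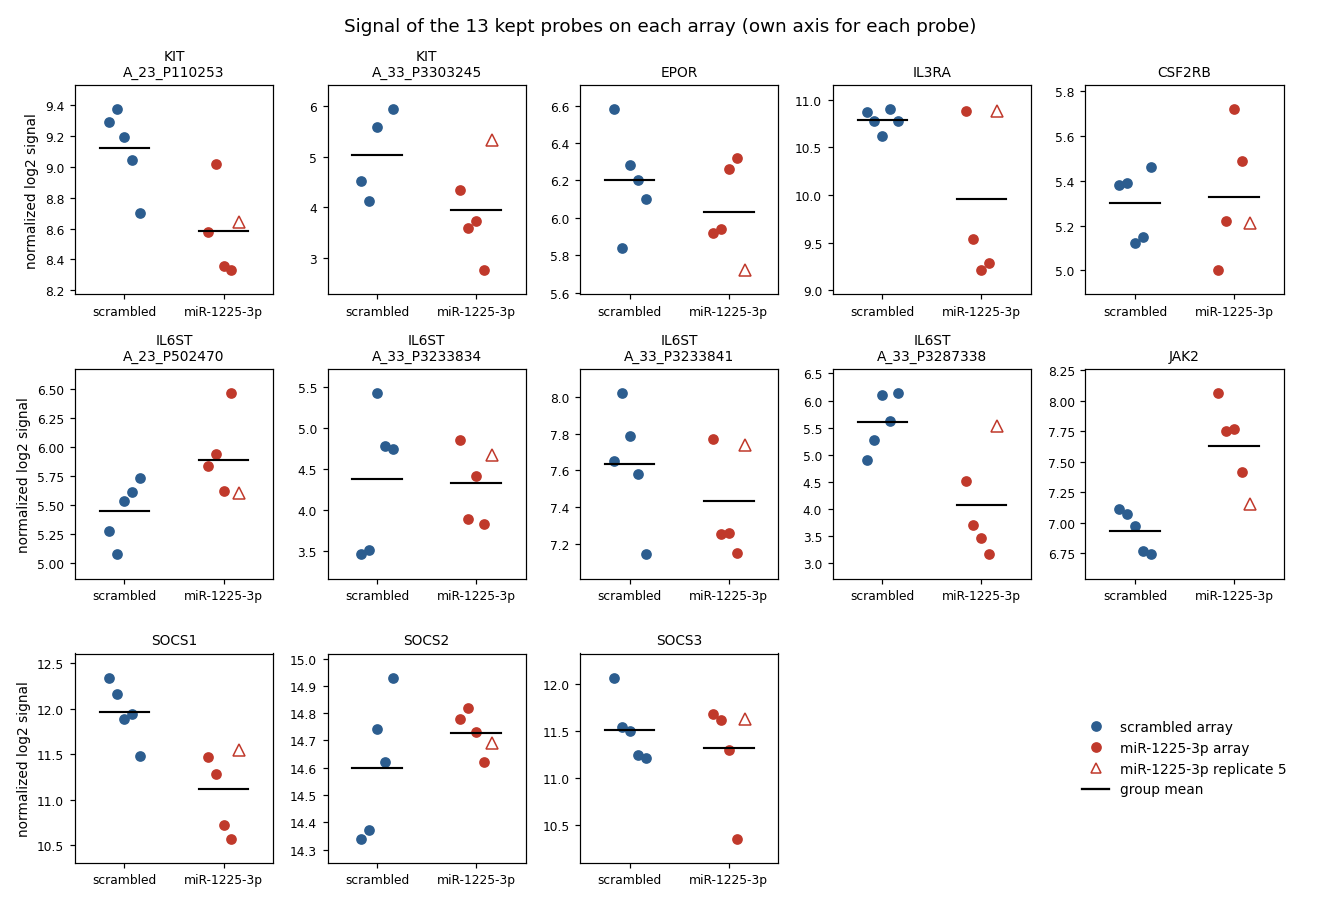
Normalized log2 signal of the 13 kept probes (vertical axis, its own range for each probe) on each scrambled array (blue) and each miR-1225-3p array (red, with replicate 5 as an open triangle). Horizontal lines are group means, and in the JAK2 panel alone all miR-1225-3p arrays lie above all scrambled arrays.

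KIT binds stem cell factor and sustains hematopoietic progenitors. Its brightest probe, A_23_P110253, is printed in 10 copies on each array and was well above background on all arrays. It read 8.58, 9.02, 8.36, 8.33 and 8.64 in miR-1225-3p replicates 1 to 5, and 9.29, 9.37, 9.19, 9.04 and 8.70 in scrambled replicates 1 to 5. The groups overlapped, as miR-1225-3p replicate 2 was above scrambled replicate 5. The means were 8.58 ± 0.276 and 9.12 ± 0.265 (SD, n = 5 each), and KIT fell by 0.53 on the log2 scale (SE 0.181, a 1.45-fold difference, limma adjusted p = 0.0435, two-sided exact permutation p = 0.0159, unadjusted). The difference was -0.55 without miR-1225-3p replicate 5 (limma adjusted p = 0.0342). It lies close to the threshold, as the adjusted p was 0.0659 with the slide as a block and the call held in 3 of the 10 fits that left out 1 array, in which replicate 2 or 5 of the miR-1225-3p group or replicate 5 of the scrambled group was missing. Over the other 7 the limma adjusted p lay between 0.0724 and 0.1, and over all 10 the difference lay between -0.64 and -0.47. Within slide 1 the difference was -0.26 and within slide 2 it was -0.76, with limma adjusted p of 0.484 and 0.501.

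The other KIT probes were dim. A_33_P3303245, designed to another KIT transcript (NM_001093772), read 4.35, 3.59, 3.73, 2.76 and 5.33 in miR-1225-3p replicates 1 to 5, and 4.52, 4.12, 5.59 and 5.93 in scrambled replicates 1, 2, 3 and 5. Scrambled replicate 4 had no value because its spot was an outlier, and it was left out of the fit. The probe was well above background on 1 miR-1225-3p array, replicate 5, and on scrambled replicates 3, 4 and 5, and the groups overlapped. Scrambled replicate 4 counted toward the background filter although its spot was an outlier, and the probe would not have been kept without it. Its difference of -1.09 (SE 0.543) did not pass (limma adjusted p = 0.136). Once miR-1225-3p replicate 5 is left out, no miR-1225-3p array measured the probe above background, so its call in that fit is not read as a difference. The remaining KIT probe, A_33_P3407034, was not well above background on any array, and no fold is given for it.

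EPOR, the erythropoietin receptor, drives red cell formation. Its probe read 5.92, 5.94, 6.26, 6.32 and 5.72 in miR-1225-3p replicates 1 to 5, and 6.58, 5.84, 6.28, 6.20 and 6.10 in scrambled replicates 1 to 5. The groups overlapped over most of their range, with the highest value on a scrambled array and the lowest on miR-1225-3p replicate 5. The difference of -0.17 (SE 0.176) did not pass (limma adjusted p = 0.456), and was -0.090 without miR-1225-3p replicate 5. Within slide 2 it was 0.080.

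IL3RA is the chain that binds interleukin-3. It read 10.88, 9.54, 9.21, 9.29 and 10.88 in miR-1225-3p replicates 1 to 5, and 10.87, 10.78, 10.62, 10.90 and 10.78 in scrambled replicates 1 to 5. Replicates 2, 3 and 4 lay below every scrambled array, while replicates 1 and 5 lay within the scrambled range. The SD was 0.847 in the miR-1225-3p group against 0.108 in the scrambled group. The difference of -0.83 (SE 0.351, 1.78-fold) did not pass with all arrays (limma adjusted p = 0.0846). It was -1.06 (SE 0.313) and passed without miR-1225-3p replicate 5, with a limma adjusted p of 0.0174. It also passed without miR-1225-3p replicate 1 (-1.06, limma adjusted p = 0.0452).

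CSF2RB is the common beta chain that carries the signal of interleukin-3, interleukin-5 and GM-CSF. Its kept probe read 5.00, 5.22, 5.72, 5.49 and 5.21 in miR-1225-3p replicates 1 to 5, and 5.38, 5.39, 5.12, 5.15 and 5.46 in scrambled replicates 1 to 5. The scrambled values lay inside the range of the miR-1225-3p values. The difference was 0.026 (SE 0.161, limma adjusted p = 0.903), and it changed sign with the scaling between arrays. Only 2.42% of kept probes differed by less. The other CSF2RB probe, A_33_P3341442, was well above background on 1 array and was not tested.

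IL6ST, known as gp130, is the shared signaling chain of the interleukin-6 family, and its 5 probes did not behave as 1 gene. The brightest, A_33_P3233841, read 7.77, 7.25, 7.26, 7.15 and 7.74 in miR-1225-3p replicates 1 to 5, and 7.65, 8.02, 7.79, 7.58 and 7.14 in scrambled replicates 1 to 5. The groups overlapped, with the lowest value on scrambled replicate 5, and the difference of -0.20 (SE 0.2) did not pass (limma adjusted p = 0.432). A_23_P502470, listed under the same transcript (NM_002184), read 5.83, 5.94, 5.62, 6.46 and 5.6 in miR-1225-3p replicates 1 to 5, and 5.27, 5.07, 5.53, 5.61 and 5.73 in scrambled replicates 1 to 5. Here the higher values lay on miR-1225-3p arrays, with overlap through replicates 3 and 5. The difference of 0.45 (SE 0.2, 1.36-fold) did not pass (limma adjusted p = 0.0989, two-sided exact permutation p = 0.0476, unadjusted), nor did the 0.52 without miR-1225-3p replicate 5 (limma adjusted p = 0.0514). Without scaling between arrays it was -0.038.

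The 3 IL6ST probes listed under transcript NM_175767 were near background. A_33_P3287338 was well above background on miR-1225-3p replicates 1 and 5 and on scrambled replicates 3, 4 and 5. It read 4.51, 3.71, 3.47, 3.16 and 5.53 in miR-1225-3p replicates 1 to 5, and 4.90, 5.27, 6.10, 5.63 and 6.13 in scrambled replicates 1 to 5. Of the miR-1225-3p arrays, replicate 5 alone lay within the scrambled range and the others lay below it. The probe fell by 1.53 on the log2 scale (SE 0.440, 2.88-fold, limma adjusted p = 0.0277, two-sided exact permutation p = 0.0238, unadjusted). As 3 of the 5 miR-1225-3p values were not well above background and the probe was kept through the scrambled arrays alone, the size of this fall is uncertain. The difference without miR-1225-3p replicate 5 was -1.89 (SE 0.334, limma adjusted p = 0.00134). With another background correction, normexp on the median signal, it was -0.40 and did not pass (limma adjusted p = 0.0687). The difference was -1.50 with the slide as a block (limma adjusted p = 0.0421), -1.60 within slide 1 and -1.40 within slide 2, where neither value passed by limma (adjusted p of 0.0589 and 0.501). The call held in 4 of the 10 fits that left out 1 array, in which replicate 1 or 5 of the miR-1225-3p group or replicate 1 or 2 of the scrambled group was missing, and the adjusted p of the others lay between 0.0555 and 0.0685.

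A_33_P3233834 was well above background on the same 5 arrays as A_33_P3287338, yet its difference was -0.052 (SE 0.397, limma adjusted p = 0.922). It read 4.85, 3.89, 4.42, 3.83 and 4.67 in miR-1225-3p replicates 1 to 5, and 3.46, 3.52, 5.42, 4.78 and 4.74 in scrambled replicates 1 to 5, so the lowest and the highest value were both on scrambled arrays. The fifth probe, A_33_P3233843, was not well above background on any array. Across the 10 arrays, which share their normalization and their split into groups, the values of A_23_P502470 correlated at r = -0.699 with A_33_P3233841 and at r = -0.565 with A_33_P3287338, whereas the last pair had r = 0.481. The level of IL6ST as 1 gene therefore has no single value in these data.

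**Figure D2:**
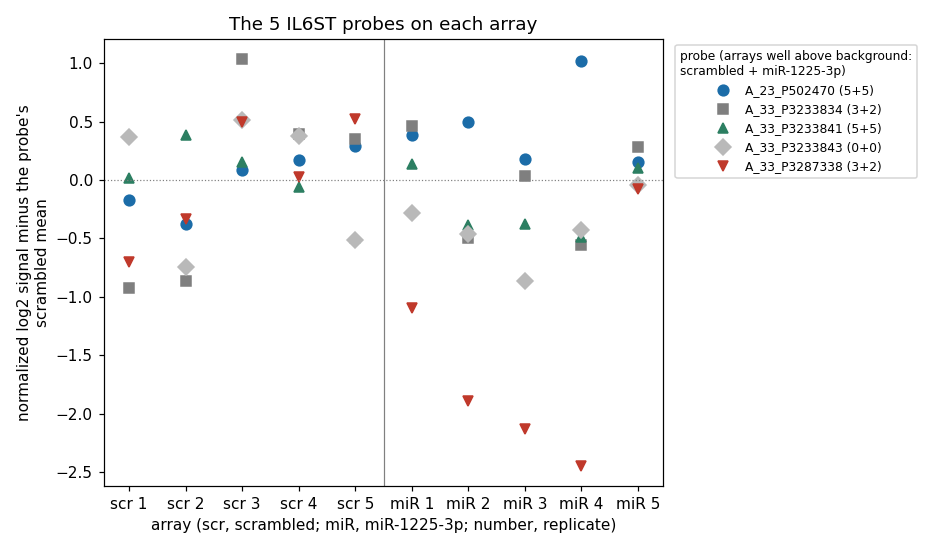
Normalized log2 signal of the 5 IL6ST probes on each array, with the mean of the probe over the scrambled arrays subtracted (vertical axis) and the arrays along the horizontal axis. The 5 miR-1225-3p arrays lie above 0 for A_23_P502470 and below 0 for A_33_P3287338, whose values on miR-1225-3p replicates 2, 3 and 4 were not well above background.

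JAK2 is the kinase bound to EPOR and to the common beta chain. Its probe, A_33_P3878772 (NM_004972), read 8.06, 7.75, 7.77, 7.42 and 7.15 in miR-1225-3p replicates 1 to 5, and 7.11, 7.07, 6.97, 6.77 and 6.74 in scrambled replicates 1 to 5. All 5 miR-1225-3p arrays lay above all 5 scrambled arrays, with replicate 5 closest to them. No other kept probe of the 9 genes separated the groups in this way, and 7.78% of all kept probes did so with the miR-1225-3p arrays above, 4.82% with them below and 12.6% in either direction. The means were 7.63 ± 0.351 and 6.93 ± 0.170 (SD, n = 5 each). JAK2 rose by 0.70 on the log2 scale (SE 0.183, 1.62-fold, limma adjusted p = 0.0218), and the two-sided exact permutation p of 0.00794, unadjusted, is the smallest that 5 against 5 arrays allow. In size the change exceeded that of 62.4% of kept probes.

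Without miR-1225-3p replicate 5, the JAK2 difference was 0.82 (SE 0.153, limma adjusted p = 0.00181). With the slide as a block it was 0.75 (limma adjusted p = 0.0238). Within slide 1 it was 0.97 and within slide 2 it was 0.53, with limma adjusted p of 0.0282 and 0.501. On slide 2, 0 of all kept probes passed by limma, and 1395 had an unadjusted p under 0.05. The direction held in all 10 fits that left out 1 array, with values between 0.59 and 0.82, and the call held in 7 of them. It was missed without miR-1225-3p replicate 2 (0.67, limma adjusted p = 0.0583), without miR-1225-3p replicate 3 (0.66, limma adjusted p = 0.0561) and without scrambled replicate 4 (0.66, limma adjusted p = 0.0527).

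**Figure D3:**
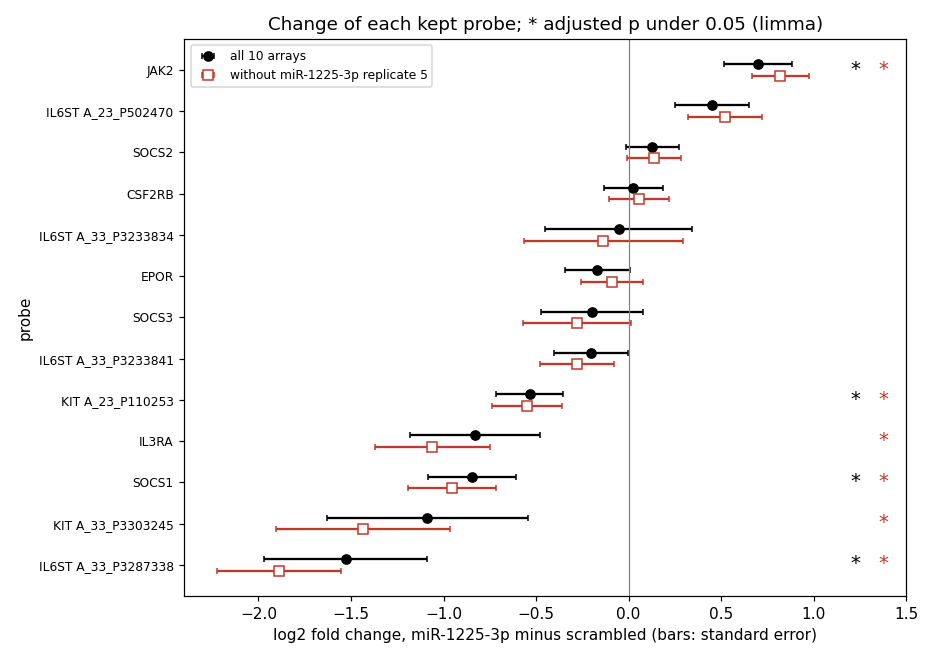
Log2 fold change of each kept probe, miR-1225-3p minus scrambled (horizontal axis, bars are standard errors), with all 10 arrays (black) and without miR-1225-3p replicate 5 (red, open). Asterisks mark a limma adjusted p under 0.05, in black for all arrays (JAK2, KIT A_23_P110253, SOCS1 and IL6ST A_33_P3287338) and in red without replicate 5, where IL3RA and KIT A_33_P3303245 join them, the latter with no miR-1225-3p array well above background.

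SOCS1 blocks JAK kinases directly through its kinase inhibitory region. Its probe read 11.47, 11.28, 10.72, 10.57 and 11.55 in miR-1225-3p replicates 1 to 5, and 12.34, 12.16, 11.89, 11.94 and 11.48 in scrambled replicates 1 to 5. The lower values lay on miR-1225-3p arrays, and the groups overlapped through miR-1225-3p replicate 5, which was above scrambled replicate 5. The means were 11.12 ± 0.444 and 11.96 ± 0.325 (SD, n = 5 each), and SOCS1 fell by 0.85 on the log2 scale (SE 0.239, 1.80-fold, limma adjusted p = 0.0262, two-sided exact permutation p = 0.0159, unadjusted). Without miR-1225-3p replicate 5 the difference was -0.95 (limma adjusted p = 0.00756). With the slide as a block it was -0.82 (limma adjusted p = 0.0402), within slide 1 it was -0.53 and within slide 2 it was -1.11, where neither passed by limma (adjusted p of 0.220 and 0.501). The call held in 3 of the 10 fits that left out 1 array, in which replicate 1 or 5 of the miR-1225-3p group or replicate 5 of the scrambled group was missing, and the adjusted p of the others lay between 0.0509 and 0.0645. With each array scaled by its 75th percentile the difference was -0.35 and did not pass (limma adjusted p = 0.185).

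SOCS2 acts on growth hormone and related receptors. Its probe read 14.78, 14.82, 14.73, 14.62 and 14.69 in miR-1225-3p replicates 1 to 5, and 14.34, 14.37, 14.74, 14.62 and 14.93 in scrambled replicates 1 to 5. The miR-1225-3p values lay within the scrambled range, with an SD of 0.0785 against 0.251. The difference of 0.13 (SE 0.144) did not pass (limma adjusted p = 0.488). With the 75th percentile in place of cyclic loess, however, it was 0.78 and passed (limma adjusted p = 0.0193).

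SOCS3 binds gp130 and EPOR and limits interleukin-6 and erythropoietin signaling. Its probe read 11.68, 11.62, 11.30, 10.36 and 11.63 in miR-1225-3p replicates 1 to 5, and 12.07, 11.55, 11.50, 11.25 and 11.22 in scrambled replicates 1 to 5. Replicate 4 stood far below the other miR-1225-3p arrays, and those lay inside the scrambled range. The difference of -0.20 (SE 0.275) did not pass (limma adjusted p = 0.573). It was 0.039 without miR-1225-3p replicate 4 and 0.29 with scaling by the 75th percentile, so SOCS3 has no settled direction in these data.

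The scaling between arrays set several of these values. The median log2 fold change of all kept probes was -0.091 after cyclic loess, 0.11 after subtracting the 75th percentile of each array, 0.045 after quantile normalization and -0.31 with no scaling. Relative to that median, JAK2 stood at 0.79, 0.69, 0.81 and 0.69 in the same order. SOCS1 stood at -0.76, -0.46, -0.81 and -0.46, and KIT A_23_P110253 at -0.44, -0.36, -0.44 and -0.36. The direction of these probes was thus kept under every scaling, both in itself and relative to the median. The 75th percentile only subtracts a constant from each array, so relative to the median its values repeat those without scaling by construction. IL6ST A_33_P3287338 kept its direction as well, at -1.44, -1.77, -1.66 and -1.77 relative to the median. JAK2 passed under cyclic loess, quantile normalization (0.85, limma adjusted p = 0.0155) and the 75th percentile (0.80, limma adjusted p = 0.0150) but not without scaling (0.38, limma adjusted p = 0.578). SOCS1 passed under cyclic loess and quantile normalization (-0.76, limma adjusted p = 0.0262), and KIT A_23_P110253 under cyclic loess alone of the 4, with -0.40 under quantile normalization (limma adjusted p = 0.0985) and -0.25 under the 75th percentile (limma adjusted p = 0.305).

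**Figure D4:**
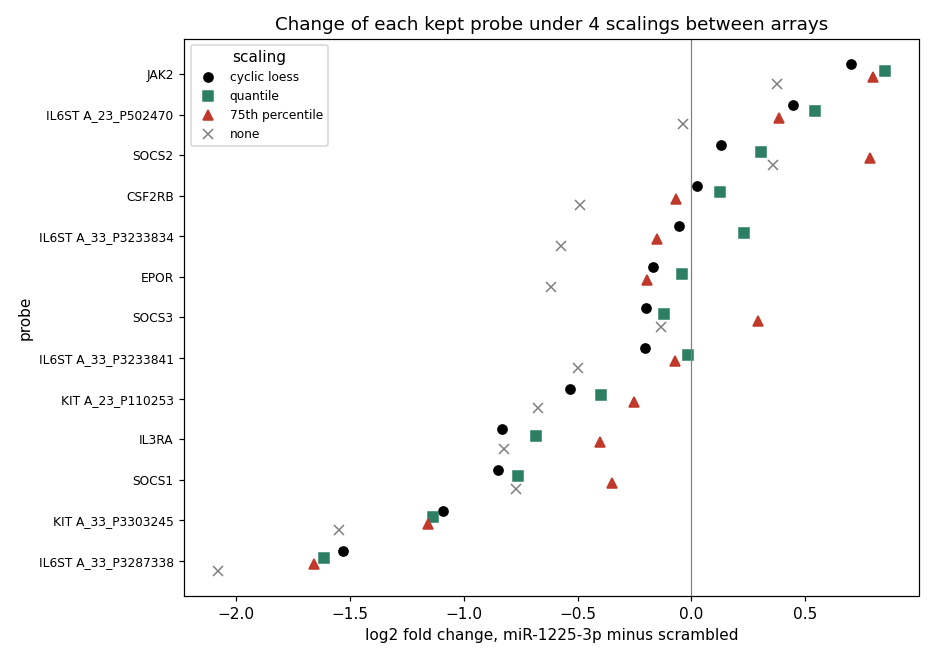
Log2 fold change of each kept probe, miR-1225-3p minus scrambled (horizontal axis), under 4 scalings between arrays (symbols). JAK2 lies above 0 and SOCS1, IL3RA and the KIT probes lie below 0 under each of them, whereas SOCS3, CSF2RB, IL6ST A_33_P3233834 and IL6ST A_23_P502470 lie on either side.

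The genes around these 9 were described from 7 lists holding 106 genes, of which 84 had a kept probe. The lists were chosen with earlier results of these data known, so the shares that follow are description only. Each gene was represented by its brightest kept probe, and the call again rested on limma's adjusted p over all kept probes. Of the 84, 11 were higher and 33 lower after miR-1225-3p (52.4%), while 36.9% of all named genes were called (18.2% higher, 18.7% lower). The median log2 fold change was -0.41, against -0.038 over all named genes. These counts and the medians of the lists include genes kept through 1 group alone. Except for CSF2, which did not pass, that was the group where they were higher. Of the 72 genes kept through both groups, 9 were higher and 28 lower (51.4%), with a median of -0.36, against 36.2% of named genes kept in the same way and their median of 0.021. The split moved with the scaling, to 16 higher and 24 lower with the 75th percentile. Without miR-1225-3p replicate 5, 12 were higher and 39 lower (60.7%), while 58.0% of all named genes were called. The counts also moved when other arrays were left out, as did those over all kept probes, from 7225 called to between 2280 and 5445. Omitting replicate 2 or replicate 3 of the miR-1225-3p group left 15 lower and 4 higher genes, and omitting replicate 1 or replicate 4 left 7 higher. Among the scrambled arrays, omitting replicate 1 left 7 higher genes, replicate 2 left 6 higher, replicate 3 left 18 lower, and replicate 4 left 19 lower and 4 higher. Of the called genes, 31 met the rule for naming, most of which are given in the following paragraphs. They had limma adjusted p between 0.0144 and 0.0446, and all 31 also passed, with the same sign, without miR-1225-3p replicate 5. Leaving out that array raised the calls over all named genes from 36.9% to 58.0%, so this is not independent support. The sign of the 31 was also kept with the 75th percentile and with no scaling.

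Of 31 other cytokine receptor genes 22 were tested, and 3 rose and 7 fell. The interferon gamma receptor chain IFNGR1 fell by 2.22 on the log2 scale (limma adjusted p = 0.0164). IL2RG, the common gamma chain, fell by 1.81, from 13.36 ± 0.469 to 11.55 ± 0.885 (SD, n = 5 each, limma adjusted p = 0.0160), and the interleukin-2 receptor beta chain IL2RB fell by 1.54. The interleukin-10 receptor chain IL10RB fell by 0.86. IL7R, the interleukin-7 receptor, rose by 1.15 (limma adjusted p = 0.0144) and IL13RA1, an interleukin-13 receptor chain, by 0.72. IL7R was well above background on 3 scrambled arrays. The other kept probe of IL2RG was at -2.42, but that of IL13RA1 was at -0.035. Of the class III receptor tyrosine kinases, the family of KIT, CSF1R alone was tested of 4 and did not pass (0.15, limma adjusted p = 0.601), and none had an unadjusted p under 0.05.

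Of 16 ligand genes 9 were tested, and 3 rose and 3 fell. KITLG encodes stem cell factor, the ligand of KIT. It read 6.94, 7.02, 6.66, 6.96 and 5.88 in miR-1225-3p replicates 1 to 5, and 5.87, 5.98, 5.97, 5.70 and 5.85 in scrambled replicates 1 to 5. Replicates 1 to 4 lay above every scrambled array and replicate 5 within their range. KITLG rose by 0.82 on the log2 scale (SE 0.216, limma adjusted p = 0.0220), and by 1.02 without miR-1225-3p replicate 5. The ligands that use gp130 moved both ways. IL11 rose by 1.21 and IL6 by 0.66, whereas LIF fell by 1.31 and OSM by 0.42 (limma adjusted p of 0.0159, 0.0226, 0.0325 and 0.0364). With the 75th percentile the OSM difference was -0.016. The other kept probes of LIF (-0.72) and OSM (-1.51) did not pass (limma adjusted p of 0.0645 and 0.0573). FLT3LG, the ligand of FLT3, fell by 0.79, and was well above background on 3 miR-1225-3p arrays. The genes of erythropoietin, interleukin-3 and thrombopoietin, singled out after their values were seen, had no kept probe.

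Among the 10 other JAK and STAT genes, all tested, 2 rose and 4 fell. STAT5A and STAT5B, the closely related factors that act downstream of EPOR, differed in direction. STAT5A fell by 0.99 (limma adjusted p = 0.0218), from 8.76 ± 0.312 to 7.77 ± 0.521 (SD, n = 5 each). STAT5B rose by 0.54 (limma adjusted p = 0.0292), from 9.32 ± 0.0794 to 9.86 ± 0.307 (SD, n = 5 each). For both genes the miR-1225-3p array nearest to the scrambled ones was replicate 5, which lay within their range. STAT3, the main factor downstream of gp130, fell by 1.22 (limma adjusted p = 0.0245), with its other probe at -2.60.

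Of 18 other negative regulators 16 were tested, and 2 rose and 6 fell. The phosphatase PTPN6, which turns off receptors and JAK2, fell by 1.93 (limma adjusted p = 0.0146). It was well above background on 3 miR-1225-3p arrays, so the size of its fall is uncertain. The JAK2-binding adaptor SH2B3 fell by 1.09 (limma adjusted p = 0.0144), the STAT inhibitor PIAS1 by 0.79 and the lipid phosphatase INPP5D by 0.53. SH2B3 read 6.68, 7.01, 6.93, 7.07 and 7.71 in miR-1225-3p replicates 1 to 5, and 8.0, 8.36, 8.23, 8.17 and 8.06 in scrambled replicates 1 to 5. All miR-1225-3p arrays lay below all scrambled arrays, replicate 5 included, which held for 4.82% of all kept probes. PTPN2, a phosphatase of JAK and STAT proteins, went the other way. It read 12.07, 12.20, 12.30, 12.40 and 11.41 in miR-1225-3p replicates 1 to 5, and 10.85, 10.88, 11.10, 10.92 and 11.10 in scrambled replicates 1 to 5. Here the groups did not overlap either, with the miR-1225-3p arrays above, as for 7.78% of all kept probes. PTPN2 rose by 1.11 (SE 0.190, limma adjusted p = 0.0144). Its other kept probes disagreed, at 0.91 (limma adjusted p = 0.0152) and 0.066 (limma adjusted p = 0.715). SOCS4, another member of the SOCS family, rose by 0.56. With the 75th percentile INPP5D was at -0.056.

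Of 14 signal adaptors and effector kinases 13 were tested. By limma 0 rose and 7 fell. At an unadjusted limma p under 0.05, 1 was higher and 9 were lower, while 10183 of the 20648 kept probes had such a p. The methods' test called 1 higher and 6 lower, against 3011 higher and 2470 lower over all kept probes. That test called 2 higher and 6 lower of the other cytokine receptors, and 3 and 1 of the ligands. Of the JAK and STAT genes it called 1 higher and 3 lower. Of the other negative regulators it called 2 higher and 6 lower, and of the STAT targets 1 and 4. GRB2, the adaptor between receptors and RAS, fell by 2.01 (limma adjusted p = 0.0158). The kinase MAPK3 (ERK1), well above background on 3 miR-1225-3p arrays, fell by 1.85 and the adaptor SHC1 fell by 0.90. The other kept probe of SHC1 was at -1.45. The median of this list was -0.74, and -0.76 over the 12 genes kept through both groups.

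Of 13 known STAT target genes, all tested, 1 rose and 6 fell, with a median of -0.90. Over the 11 kept through both groups, 1 rose and 4 fell, with a median of -0.57. CCND2, which encodes cyclin D2, fell by 4.55 (SE 1.32, limma adjusted p = 0.0284). It read 8.59, 4.52, 4.00, 2.96 and 10.78 in miR-1225-3p replicates 1 to 5, and 10.69, 10.71, 10.81, 10.46 and 10.92 in scrambled replicates 1 to 5, and was well above background on 3 miR-1225-3p arrays. Replicate 5 lay among the scrambled arrays and the others below them. The kinase PIM1 fell by 1.56 (limma adjusted p = 0.0268) and its relative PIM2 by 0.57. The survival factor MCL1 fell by 0.90. The stress response gene GADD45G rose by 1.02 (limma adjusted p = 0.0144), with its other kept probe at 0.070.

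**Figure D5:**
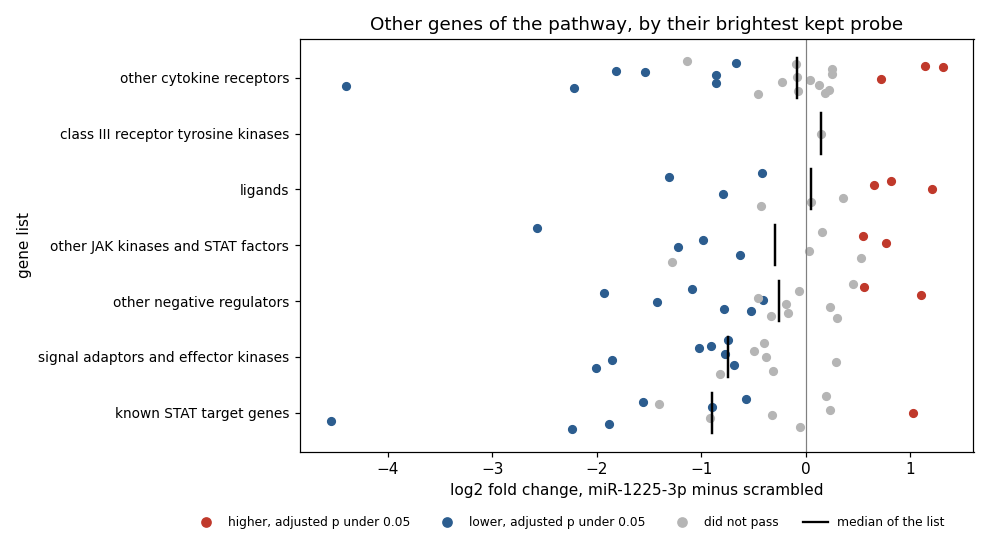
Log2 fold change, miR-1225-3p minus scrambled (horizontal axis), of each tested gene of the 7 pathway lists (vertical axis), coloured by its call at a limma adjusted p of 0.05, with the median of each list as a black line. Of the signal adaptors 7 of 13 were lower, and of the STAT target genes 6 of 13, against 18.7% of all named genes. The medians of these lists, the lowest of the 7, were -0.74 and -0.90, against -0.038 over all named genes. Over the genes kept through both groups, 7 of 12 and 4 of 11 were lower, with medians of -0.76 and -0.57.

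Probes with a similar pattern over the 10 arrays were sought for SOCS1, the probe with the largest difference among those well above background on all arrays. The nearest were CALU, a calcium-binding protein of the secretory pathway, at r = 0.985, PTHLH, the parathyroid hormone-like hormone, at r = 0.984, and INTS15 at r = 0.982. For CALU the log2 fold change was -1.74, for PTHLH -0.57 and for INTS15 -0.51. The probe nearest to no change of those, SOCS2, was most like TK1, the cytosolic thymidine kinase, at r = 0.950, RAN, the nuclear transport GTPase, at r = 0.949, and CNIH1 at r = 0.948. These are Pearson correlations over 10 arrays that share their normalization and their split into groups, chosen as the highest of all kept probes of named genes.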

How the data were processed

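Per the labels, RNA of 10 transfected MEG-01 samples (5 miR-1225-3p, 5 scrambled) was hybridised to 1-colour Agilent arrays. The authors deposited scanner output with processed signal intensity, which Feature Extraction (10.7.3.1 in the submitters' notes, another version in the methods) had background-subtracted, median signal and local background intensity, and spot flags. The authors also deposited a table of log2 values (29271 probes) that the methods describe as cyclic loess normalized. Its direction and scale follow the arrays (r between 0.981 and 0.998 per array over 16345 shared probes, each centred on its mean), its column medians lie between 4.769 and 5.151, and its centring is unknown.

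Control spots were removed, and log2 processed signals were normalized over the 10 arrays by cyclic loess (3 iterations) in limma 3.58.1 (R 4.3.3). Outlier spots were then set missing and the spots of a probe averaged. A probe was kept if at least 3 arrays of a group were well above background, in a share of at least 0.5 of its spots. Outlier spots were counted in that filter. Of 42405 probes, 24910 were named through RefSeq (GRCh38.p14) by unversioned accession. Each kept probe was tested with lmFit and eBayes and adjusted by Benjamini-Hochberg at 0.05. Single probes also had a two-sided exact permutation test. The number of arrays limits the precision.

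All probes of the 9 genes are named, and from each pathway list the up to 4 largest rises and 4 largest falls with an adjusted p under 0.05 and at least 3 arrays of each group well above background, besides the nearest probes by correlation. Some genes that met this rule are not reported here. The genes, lists and tests were chosen with earlier results of these data known. Alternatives covered scaling, background correction, the authors' values, filters, tests, 1 probe per gene, slide, replicate block and each array left out. The deposited files hold no mean signal, so normexp (offset 50) used the median signal. The fit was tested on simulated data.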

Additional observations from a re-analysis of the deposited data

Results flagged for a closer look

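SOCS3 on miR-1225-3p replicate 4 stood apart from the other arrays of its group. Its normalized log2 signal was 10.36, whereas the next lowest miR-1225-3p value was 11.30 on replicate 3. Without that array the SOCS3 log2 fold change was 0.039 in place of -0.20, and neither value passed. Of the 25 groups of 5 arrays examined for such a gap, 1 showed it, and chance gives about 1.25. None of these gaps lay on miR-1225-3p replicate 5.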

How the results depend on the processing

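With all arrays and cyclic loess, 3 of the 13 kept probes of the 9 genes were called lower and 1 higher, and of the 84 pathway genes 33 and 11. With the 75th percentile, 1 probe was called lower and 2 higher, and over all kept probes the calls went from 3356 higher and 3869 lower to 5132 and 3262. Without scaling, 0 probes were called either way, with 9 pathway genes lower and 0 higher. Over all kept probes that setting called 174 higher and 1050 lower. Without the filter on dim probes and within slide 1, 0 probes were called lower, and the methods' t-test called 1. Over all probes tested, the same settings called 1846, 3132 and 2470 lower in that order. With array weights 2 probes and 17 pathway genes were higher, as were 6444 of all kept probes. Within slide 2 all 4 counts were 0, and 0 of all kept probes passed by limma. With the slide as a block and without miR-1225-3p replicate 5, a setting chosen after seeing the data, 5 probes were called lower. Of all kept probes 6279 were lower in that fit. Leaving out 1 array gave 0 to 5 probes lower, 0 to 1 higher, 15 to 39 pathway genes lower and 4 to 12 higher. Over all kept probes it gave 992 to 6298 lower and 1288 to 5226 higher. The cause of these shifts was not tested. Fewer arrays enter the fits within a slide or without an array. Within slide 1 (2 miR-1225-3p and 3 scrambled arrays) 5554 of all kept probes passed by limma. Within slide 2 (3 miR-1225-3p arrays, replicate 5 among them, and 2 scrambled arrays) 0 passed.

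With the replicate number as a block all 4 counts were 0 by limma (0 of all kept probes passed, and 8994 had an unadjusted p under 0.05). The labels do not say whether same-numbered samples were transfected together. The deviations of same-numbered arrays correlated between -0.401 and 0.0586, which cannot settle whether they were paired. JAK2 had a limma adjusted p of 0.0503 in the fit with the replicate number as a block.

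Of the single probes, the sign changed for CSF2RB (-0.068 with the 75th percentile, -0.49 without scaling, -0.030 in the authors' values, -0.0050 with the slide block, -0.21 within slide 1, and -0.073 to 0.11 leaving out 1 array), SOCS3 (0.29 with the 75th percentile, 0.12 with array weights, 0.051 within slide 1, and -0.29 to 0.039 leaving out 1 array), IL6ST A_33_P3233834 (0.23 with quantile normalization, 0.16 within slide 2, and -0.28 to 0.21 leaving out 1 array), IL6ST A_23_P502470 (-0.038 without scaling) and EPOR (0.080 within slide 2). With all arrays and cyclic loess none of these probes was called, and of the alternatives array weights alone called 1 of them, IL6ST A_23_P502470 (0.38, limma adjusted p = 0.0267). Over the alternatives of the 13 probes, 252 values kept sign and call, 49 kept the sign and lost the call, 7 kept the sign and gained a call, and 22 changed sign. Near background the arrays give little precision, as for the IL6ST and KIT probes that few arrays measured.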
